A study of Mus musculus with 2 samples.

Results

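C-type lectin receptors were compared between S100A4-positive and S100A4-negative cells from Peyer's patches of mice, which are lymphoid tissue of the gut wall in the small intestine. Members were the genes on the array whose name starts with Clec and a digit, the Cd209 genes b to g, and Mrc1, Mrc2, Ly75 and Colec12. This rule took 42 genes with 65 probes, out of 24813 named genes, and rested on names alone. Both groups came from C57BL/6 mice that carry an S100A4-GFP transgene, a fluorescent reporter for the calcium-binding protein S100A4, and from tissue released with dispase, collagenase and DNase. The groups differ only in being S100A4-positive or S100A4-negative by label. Each group was 1 sample of total RNA on 1 Agilent array of 1 colour, and the labels do not give how many mice it came from or whether RNA was pooled. With 1 array per group there was no replicate check and no test, so each value below compares these 2 arrays.

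C-type lectin receptors are membrane proteins with a carbohydrate-recognition fold, and many of them sit on macrophages and dendritic cells. Some bind fungal or bacterial glycans and signal through the kinase SYK, either by a short tyrosine motif of their own (hemi-ITAM) or through the adaptor chains FcR gamma and DAP12. Others carry an inhibitory motif (ITIM), take up glycoproteins, or serve as ligands for NKR-P1 receptors of natural killer cells. In Peyer's patches, phagocytes lie beneath the follicle epithelium that takes up particles from the gut lumen.

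A level here is the scanner software's processed signal divided by the 75th percentile of its own array, so that 1 is the 75th percentile of all spots, and levels of different probes are not compared. Of 59305 spots per array, 31042 (52.3%) on the positive and 31595 (53.3%) on the negative array were well above background by the software's flag, and none was saturated. Differences are log2 of positive over negative, with the software's error for the spots, which was 0.20 for a typical gene seen on both arrays. Differences between animals, cell sorts or labellings are not part of that error. S100a4 itself read a level of 415.4 in positive and 2.371 in negative cells, a log2 difference of 7.45 ± 0.20, in the direction of the labels. Where a gene was well above background on 1 array alone, its fold is a bound, written as "at least", with the dim side set at the probe's signal there or, if higher, at the lowest signal that passed the flag on that array. The level printed for the dim side is then the probe's reading, not well above background. A probe can fail the flag at a signal above that lowest one, as Mrc1 did on the negative array (0.0367 against 0.0362). The bounds are therefore not firm lower limits.

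Most C-type lectin genes that were seen had a higher level in S100A4-positive cells. Of the 42 genes, 33 were well above background on at least 1 array: 18 on both, 12 on the positive array alone and 3 on the negative array alone. Those shares were 54.5%, 36.4% and 9.09% of the 33, against 85.0%, 7.49% and 7.56% of all genes seen. The 12 thus entered the counts through the positive array alone. At bounds, 19 of the 33 (57.6%) were at least 4-fold higher in positive cells, against 9.88% of 15245 genes seen, and 1 (3.03%) was at least 4-fold lower, against 4.99%. At 2-fold, 22 (66.7%) were higher, against 21.4% of all genes, and 3 (9.09%) were lower, against 17.0%. The median difference of the 33 was 4.14 as measured and 3.43 at bounds, against 0.02 and 0.01 for all genes. Over the 18 seen on both arrays it was 2.22, against 0.007 for all genes seen on both. In such bulk samples, more cells of a type and more RNA per cell cannot be told apart. Cd209c, Cd209f, Clec12b, Clec14a, Clec1a, Clec3a, Clec4a2, Clec4b2 and Clec4f were well above background on neither array, which sets no level for them beyond that.

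**Figure D1:**
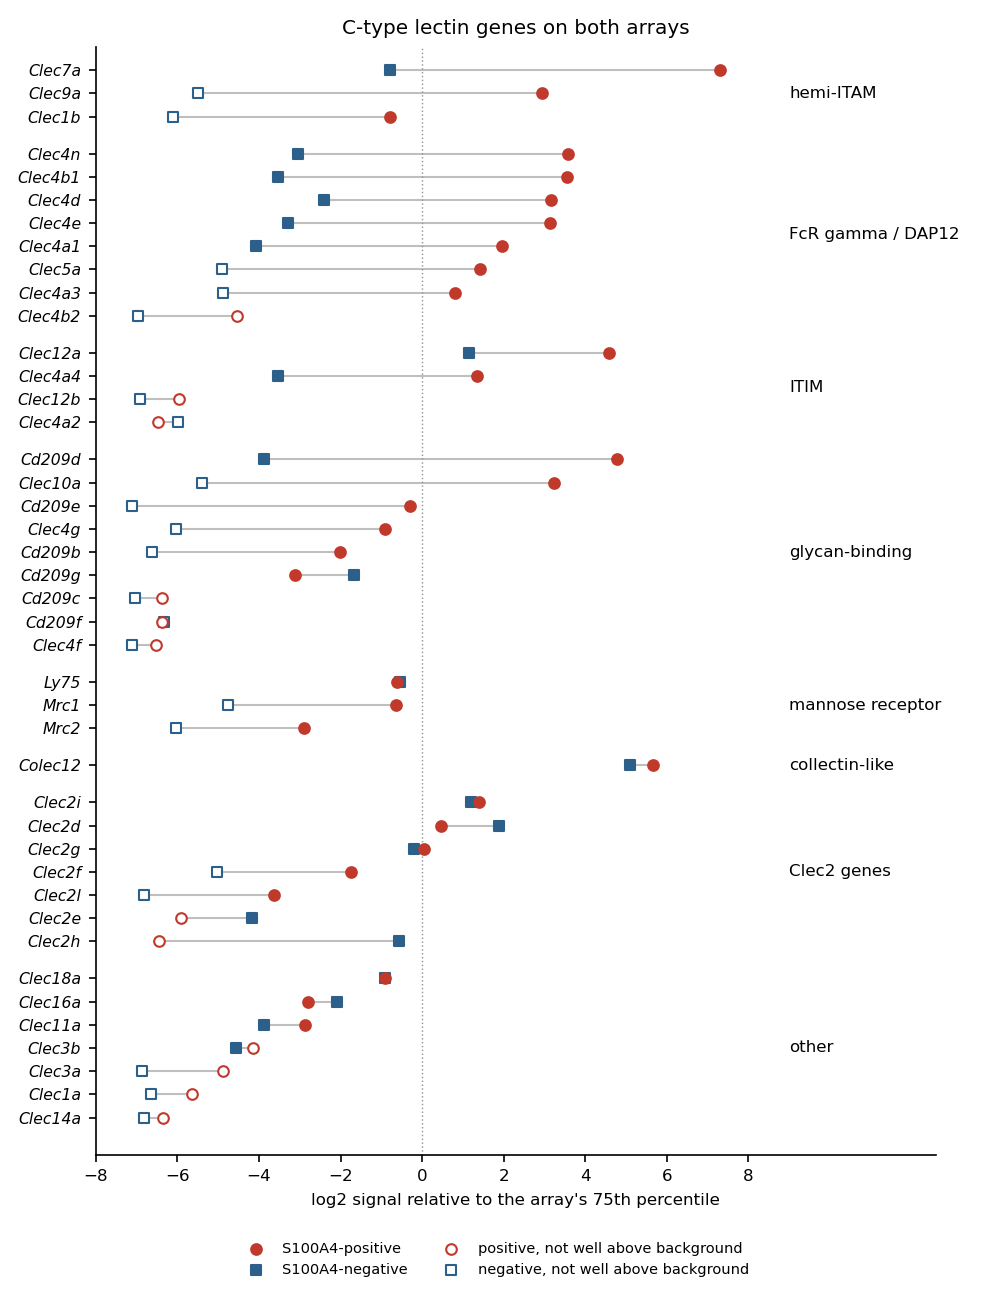
Level of each of the 42 C-type lectin genes (horizontal axis, log2 signal relative to the array's 75th percentile) in S100A4-positive cells (red circles) and S100A4-negative cells (blue squares), 1 array each, grouped by role and with open symbols for a signal not well above background. The red circle lies far to the right of its blue square for all 3 hemi-ITAM genes, whereas Clec2h shows the opposite order, and horizontal positions of different genes are not comparable since each has its own probe.

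The 3 hemi-ITAM genes were all higher in positive cells. Clec7a, which encodes the beta-glucan receptor Dectin-1, had a level of 159.0 in positive cells, against 0.583 in negative cells. That was a log2 difference of 8.09 ± 0.20, or 273-fold, from a probe at chr6:129411739-129411798 of the mm9 build, whose exon was not analysed here. Its raw signals were 45670 on the positive and 259.9 on the negative array. Clec9a, which encodes DNGR-1, a receptor of cross-presenting dendritic cells for actin exposed by dead cells, had a level of 7.63 in positive cells and 0.0223, not well above background, in negative cells. It was at least 211-fold higher. Clec1b, which encodes CLEC-2, a podoplanin receptor best known on platelets, had levels of 0.578 in positive and 0.0146 in negative cells and was at least 16.0-fold higher. Of 6 platelet and megakaryocyte markers, Itga2b, Gp9, Gp1ba and Gp6 were well above background on neither array. Pf4, a platelet chemokine gene, read 4.87 in positive and 0.0614 in negative cells (6.31 ± 0.28). Ppbp, another such gene, was seen on the positive array alone, with levels of 0.0708 in positive and 0.00722 in negative cells, at least 1.95-fold higher. The 2 markers seen were thus higher where Clec1b was, and their part in its value was not tested.

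The activating group has 8 genes and includes receptors that couple to FcR gamma or DAP12. Of these 8, 7 were seen, and all 7 were at least 4-fold higher in positive cells, against 9.88% of all genes seen. Their measured differences ran from 5.58 to 7.10. Clec4e encodes Mincle, a receptor for mycobacterial glycolipid, and had levels of 8.86 in positive and 0.102 in negative cells, a difference of 6.44 ± 0.23. Clec4d encodes its partner MCL, and had levels of 8.97 in positive and 0.188 in negative cells, a difference of 5.58 ± 0.21. Clec4n encodes Dectin-2, a receptor for fungal mannans, and had levels of 11.9 in positive and 0.121 in negative cells, a difference of 6.62 ± 0.22. All 3 genes were well above background on both arrays and lay far apart between them. Clec4b1 had a level of 11.8 in positive cells and 0.0863 in negative cells (7.10 ± 0.24). Clec4a1 read 3.91 in positive and 0.0593 in negative cells (6.04 ± 0.31). Clec5a, which encodes a DAP12-coupled receptor of myeloid cells, was at least 73.3-fold higher, with levels of 2.66 in positive and 0.0332 in negative cells. Clec4a3 was at least 48.5-fold higher, with levels of 1.76 in positive and 0.0337 in negative cells. Clec4b2 is the member not seen.

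The inhibitory group was seen in part. Clec12a, which encodes an inhibitory receptor for uric acid crystals, had a level of 23.9 in positive cells and 2.22 in negative cells, a difference of 3.43 ± 0.20. Among the hemi-ITAM, activating and inhibitory genes seen, its difference was the smallest measured. Clec4a4, which encodes DCIR2, had levels of 2.56 in positive and 0.0858 in negative cells (4.90 ± 0.24). Clec4a2 and Clec12b, the other two ITIM members, were not seen on either array, so the inhibitory group is represented by 2 of its 4 genes.

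Of the 9 glycan-binding endocytic genes, 6 were seen, and 5 were at least 4-fold higher in positive cells, against 9.88% of all genes seen. Cd209d had levels of 27.6 in positive cells and 0.0682 in negative cells (8.66 ± 0.26), which at 405-fold was the largest difference among members seen on both arrays. Clec10a, which encodes a macrophage galactose-type lectin, had levels of 9.47 in positive and 0.0237 in negative cells and was at least 261-fold higher. Cd209e was at least 22.4-fold higher, with levels of 0.812 in positive and 0.00720 in negative cells. Clec4g, whose product is known from liver and lymph node sinus endothelium, was at least 14.7-fold higher, with levels of 0.534 in positive and 0.0152 in negative cells. Cd209b, which encodes SIGN-R1, known from marginal zone macrophages of the spleen, was at least 6.84-fold higher, with levels of 0.248 in positive and 0.0102 in negative cells. Cd209g went the other way, with levels of 0.116 in positive and 0.317 in negative cells (-1.45 ± 0.25). Cd209g therefore differed in direction from the 3 other Cd209 genes seen. That direction rested on 1 dim probe, with raw signals of 33.43 in positive and 141.3 in negative cells. The other Cd209g probe was seen on neither array.

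The mannose receptor family was mixed. Mrc1, which encodes the macrophage mannose receptor CD206, had levels of 0.646 in positive and 0.0367 in negative cells and was 17.6-fold higher at its bound. Its dim reading lay just above the lowest signal that passed the flag there (0.0362). The bound therefore equals the measured difference (4.14 ± 0.38) and is no firm lower limit. Mrc2, which encodes the collagen receptor Endo180, was at least 3.73-fold higher, with levels of 0.135 in positive and 0.0153 in negative cells. Ly75, which encodes DEC-205, an uptake receptor of dendritic cells and thymic epithelium, had nearly equal levels of 0.658 in positive and 0.692 in negative cells (-0.07 ± 0.21), within the software's error. Colec12, a collectin-like scavenger receptor gene, was bright on both arrays, with levels of 51.0 in positive and 34.1 in negative cells (0.58 ± 0.20), so it did not reach 2-fold.

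The 7 Clec2 genes, a group that includes ligands of NKR-P1 receptors, did not move as 1 group: 1 was at least 4-fold higher, 1 at least 4-fold lower, and the median was 0.21. Clec2h had a level of 0.0115, not well above background, in positive cells, against 0.675 in negative cells, and was at least 12.3-fold lower. It is known from mouse intestinal epithelium as a ligand of NKR-P1 receptors. Clec2d, which encodes a ligand of the inhibitory receptor NKR-P1B, had levels of 1.38 in positive and 3.70 in negative cells (-1.43 ± 0.20). Clec2i and Clec2g hardly differed, at 2.65 in positive and 2.28 in negative cells for Clec2i (0.21 ± 0.20). The levels of Clec2g were 1.03 in positive and 0.867 in negative cells (0.25 ± 0.21). Clec2f was at least 8.32-fold higher, with levels of 0.301 in positive and 0.0306 in negative cells. Clec2l was at least 2.22-fold higher, with levels of 0.0803 in positive and 0.00887 in negative cells. For Clec2e, with levels of 0.0167 in positive and 0.0557 in negative cells and seen on the negative array alone, the bound of 1.02-fold lower left no direction to read.

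Of the 7 other genes, 4 were seen and none reached 4-fold. Clec11a, which encodes a bone growth factor, had levels of 0.136 in positive and 0.0679 in negative cells (1.01 ± 0.28), at the 2-fold size. Clec18a had levels of 0.534 in positive and 0.529 in negative cells (0.01 ± 0.21). Clec16a, an autophagy regulator gene, had levels of 0.145 in positive and 0.236 in negative cells (-0.70 ± 0.24). Clec3b was well above background on the negative array alone, with measured levels of 0.0565 in positive and 0.0427 in negative cells, so that no fold is given.

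For 16 genes the array carried several probes, and for 10 of these several were well above background. In 9 of the 10 genes the probes gave 1 direction. For Clec5a the bounds of its 3 probes were 73.3-fold, 12.7-fold and 6.64-fold. For Cd209d the probe seen on both arrays gave 8.66, and the other, seen on the positive array alone, had a bound of 7.68. For Clec7a the probe seen on both arrays gave 8.09, and the other had a bound of 6.19. Clec10a had the widest gap: its 2 probes differed by 8.64 and 4.25 as measured and by 8.03 and 2.01 at bounds. The 2 Clec2d probes, which overlap by 20 bases, gave -1.43 and -1.70. For Ly75 they gave -0.07 and 0.52, both under 2-fold.

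**Figure D2:**
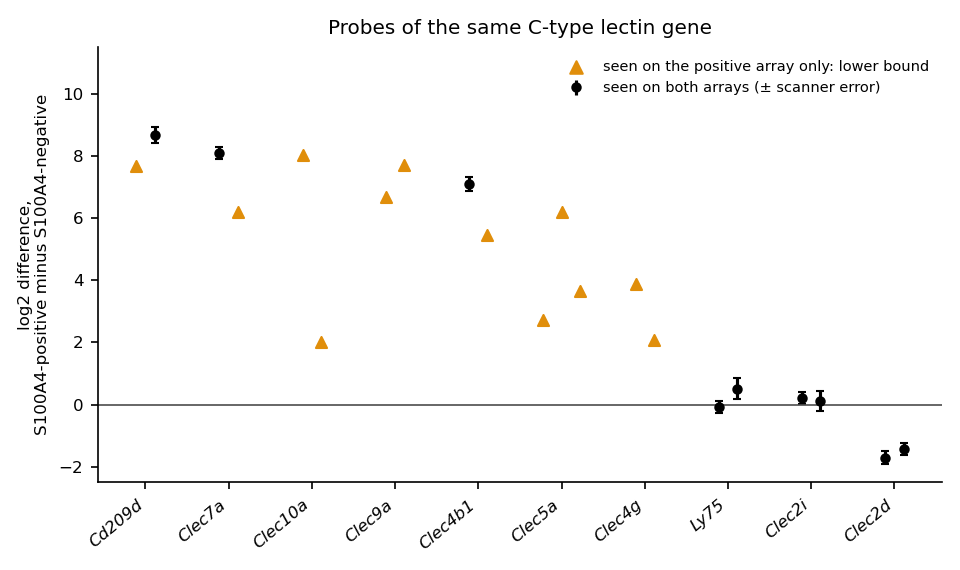
Log2 difference, S100A4-positive minus S100A4-negative, of each seen probe of the 10 C-type lectin genes with several seen probes; circles with bars are probes on both arrays with the software's error, and triangles are lower bounds of probes seen on the positive array alone. All probes lie above 0 for 8 genes, both Clec2d probes lie below it, and those of Ly75 straddle it.

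Probes that share sequence can bind transcripts of each other's genes. Of 2047 pairs of probes of different members, 1 pair had at least 75% identical bases at its best alignment, those of Clec2g and Clec2i, with 47 of 57 aligned bases (82.5%). They are shown because the near-equal values of those genes rest on them. The stretches below are 30 bases of the 60-base probes at chr6:128933086-128933145 (Clec2g) and chr6:128846546-128846605 (Clec2i) on the mm9 build, with capitals for the 29 bases they share.
Clec2g: TCCTGTCTAGCAtTTACCAAGAGACTCTTC
Clec2i: TCCTGTCTAGCAcTTACCAAGAGACTCTTC
The probe of Cd209f shares a run of 16 bases with that of Cd209g, and Cd209f was not seen. A second Clec2i probe, outside that likeness, gave 0.12 against 0.21. No member probe shared 20 bases with another gene's probe on the array.

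The members lie partly in gene clusters. Genes on 1 chromosome with gaps of at most 500 kb were grouped, a distance chosen after the values were seen, and 3 groups of at least 3 members resulted. A stretch of 348.4 kb of chromosome 6 from Clec4a1 to Clec4e held 9 members, of which 7 were seen, and all 7 were at least 4-fold higher in positive cells. A second stretch of 785.3 kb of chromosome 6, from Clec2h to Clec7a, held 12 members, 10 of them seen. There 5 were at least 4-fold higher and 2, Clec2h and Clec2d, at least 2-fold lower. The stretch of 421.5 kb of chromosome 8 from Clec4g to Cd209g held 7 members, of which 5 were seen, 4 at least 4-fold higher and Cd209g at least 2-fold lower. Outside these stretches 3 of 11 seen members, Clec10a, Clec5a and Mrc1, were at least 4-fold higher.

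**Figure D3:**
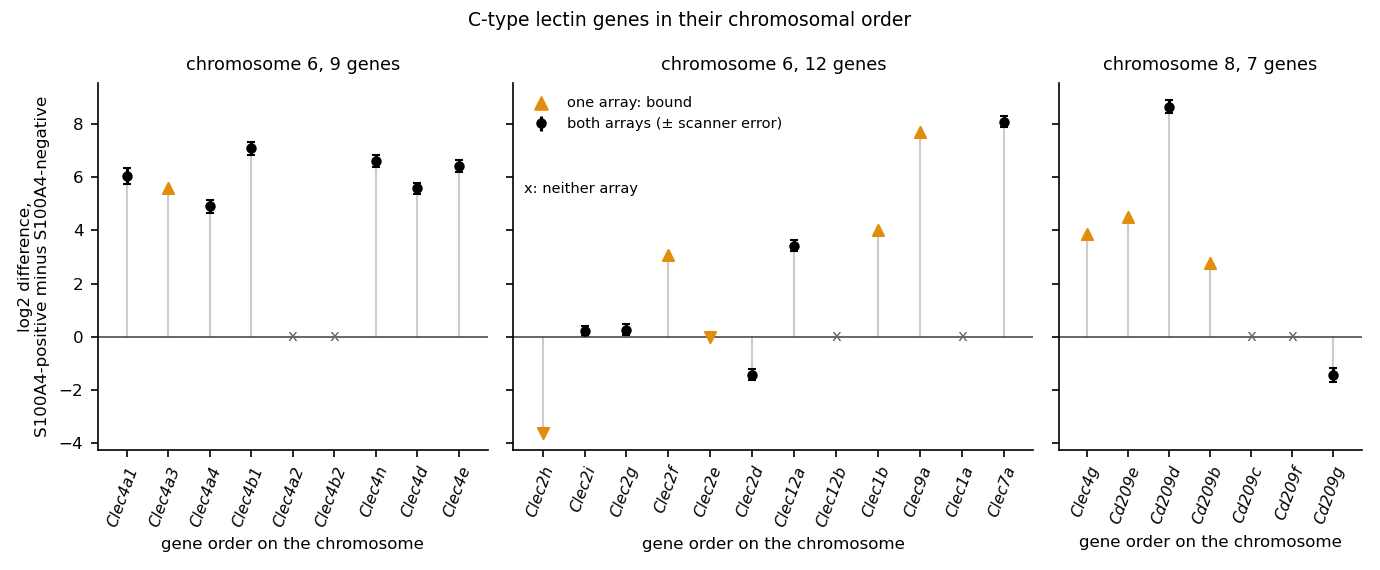
Log2 difference, S100A4-positive minus S100A4-negative, of the C-type lectin genes in their order along 3 chromosome stretches; circles carry the software's error, triangles are bounds of genes seen on 1 array, and x marks genes seen on neither. Every seen gene of the 9-gene stretch of chromosome 6 lies above 4, while the 12-gene stretch holds both the strongly higher Clec7a and the lower Clec2h.

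RefSeq promoter windows of GRCm38.p6, from 250 bases before to 50 after the start, were found for 33 of the 42 members. GAGGAA, a letter pattern of the kind bound by the myeloid factor PU.1, was present on either strand in 17 (51.5%), against 31.3% of 27025 promoters of all genes. GGAA and GAAA 2 bases apart, a pattern of joint binding of PU.1 and interferon regulatory factors, was present in 5 (15.2%), against 3.16%. The 2 patterns overlapped in none of the members. A match is a description of letters and shows no binding. Nor did GAGGAA go with direction in every member. It was present in Clec2h and Clec16a, which read lower in positive cells (Clec16a at -0.70, under 2-fold), and absent in Clec9a and Cd209e, which read higher. These genes are examples, and a link of the pattern with direction was not tested. The promoters of 3 members are shown, chosen after the values were seen because Clec7a, Clec4e and Clec4d encode receptors with related roles in sensing fungi and mycobacteria and all 3 were at least 4-fold higher. Capitals mark the pattern matches on either strand, namely GAGGAA or its complement in all 3, and in Clec7a also the second pattern on the reverse strand. The windows lie at chr6:129472730-129473029 on the minus strand (Clec7a), chr6:123289822-123290121 on the minus strand (Clec4e) and chr6:123261857-123262156 on the plus strand (Clec4d).
Clec7a: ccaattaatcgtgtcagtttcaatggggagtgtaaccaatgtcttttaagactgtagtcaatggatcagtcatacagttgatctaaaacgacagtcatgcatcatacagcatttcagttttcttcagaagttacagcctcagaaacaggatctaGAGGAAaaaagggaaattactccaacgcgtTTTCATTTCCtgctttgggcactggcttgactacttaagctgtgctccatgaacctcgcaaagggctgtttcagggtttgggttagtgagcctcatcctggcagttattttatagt
Clec4e: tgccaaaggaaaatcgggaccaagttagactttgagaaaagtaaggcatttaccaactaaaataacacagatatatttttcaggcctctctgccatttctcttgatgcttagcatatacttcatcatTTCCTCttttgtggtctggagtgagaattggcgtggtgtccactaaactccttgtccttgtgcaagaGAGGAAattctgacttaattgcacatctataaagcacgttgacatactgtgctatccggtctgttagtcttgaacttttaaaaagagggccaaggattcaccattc
Clec4d: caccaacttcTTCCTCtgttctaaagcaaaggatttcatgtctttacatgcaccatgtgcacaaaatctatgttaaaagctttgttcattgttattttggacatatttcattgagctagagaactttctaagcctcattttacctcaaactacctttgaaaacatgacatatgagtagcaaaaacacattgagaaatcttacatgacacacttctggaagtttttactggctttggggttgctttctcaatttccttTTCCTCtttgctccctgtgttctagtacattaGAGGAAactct

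The signalling partners of these receptors did not follow the receptors as a whole. Of 35 partner genes, all seen, 10 were at least 2-fold higher, against 21.4% of all genes, and 4 at least 2-fold lower, against 17.0%, with a median of 0.11. The adaptor genes Tyrobp (DAP12) and Fcer1g (FcR gamma) were among those with the largest differences. Tyrobp had levels of 241.8 in positive and 8.74 in negative cells (4.79 ± 0.20). Fcer1g had levels of 138.8 in positive and 7.87 in negative cells (4.14 ± 0.20). Nlrp3, which encodes an inflammasome sensor, was at least 7.90-fold higher, with levels of 0.286 in positive and 0.0101 in negative cells. Syk, the kinase gene named above, differed little, with levels of 21.6 in positive and 31.9 in negative cells (-0.56 ± 0.20). Card9, the adaptor that links SYK to NF-kappaB, was at least 3.28-fold higher, with levels of 0.119 in positive and 0.00775 in negative cells. The 3 lowest were Egr3, a transcription factor gene, at 0.571 in positive and 4.95 in negative cells (-3.12 ± 0.21), Rubcn, an autophagy regulator, at 5.18 in positive and 36.6 in negative cells (-2.82 ± 0.20), and Btk, a B cell kinase gene, at 1.86 in positive and 12.9 in negative cells (-2.79 ± 0.20).

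**Figure D4:**
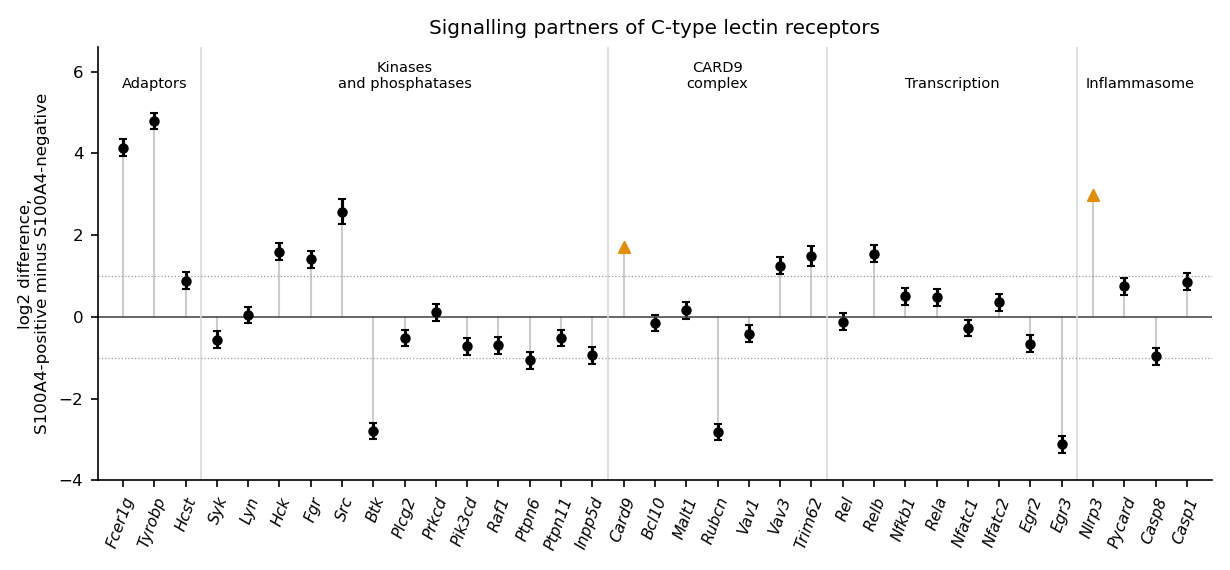
Log2 difference, S100A4-positive minus S100A4-negative, of 35 signalling partner genes in 5 groups; circles carry the software's error, triangles are bounds, and dotted lines mark 2-fold. Fcer1g and Tyrobp lie above 4, whereas Syk lies at -0.56 and Btk, Rubcn and Egr3 lie below -2.7.

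Of 16 further lectin-like genes outside the rule, 10 were seen. At the 2-fold size 6 of these were higher and 1 was lower, and their median was 1.22. Mgl2, the close relative of Clec10a, had probes at 0.37 and 6.91, so its difference is not settled. Cd69 had probes at -1.13 and 0.56, which leaves its direction open. Of 15 macrophage and monocyte markers, 14 were seen, each past 2-fold in the higher direction. Their median was 5.61, with summed levels of 749.1 in positive and 32.18 in negative cells. Among them Csf1r had probes at 1.54 and 6.36, so the size of its difference is not settled. Of 10 classical dendritic cell markers, 5 passed 2-fold upward and 1 downward in positive cells, and their summed levels were 269.2 in positive and 213.9 in negative cells. Their differences ran from -2.36 for Cd24a to 5.96 for Batf3, and Xcr1 was seen on neither array. Of 8 plasmacytoid dendritic cell markers, 5 were higher and 1 lower, at 381.5 in positive and 130.3 in negative cells. Probes of the same gene disagreed in size here, from 0.37 to 8.64 over 3 Siglech probes and from 0.03 to 3.40 over 5 Tcf4 probes. The differences of Siglech and Tcf4 are therefore not settled either. All 9 B cell markers were at least 2-fold lower, at 54.45 in positive and 514.7 in negative cells. So were 5 of 8 T cell markers, at 19.14 in positive and 114.4 in negative cells. Of 7 epithelial markers 5 were lower and 1 higher, at 2.972 in positive and 21.91 in negative cells. Natural killer and innate lymphoid markers were at least 2-fold higher for 5 of 8, at 63.64 in positive and 8.305 in negative cells. Endothelial markers were higher for 8 of 11, at 10.27 in positive and 1.108 in negative cells. Stromal markers were higher for 5 of 9 and lower for 1, at 6.19 in positive and 1.122 in negative cells. Neutrophil markers were higher for 2 of 8 and lower for 2, at 124.5 in positive and 82.92 in negative cells, of which Csf3r alone made up 122.9 in positive and 80.81 in negative cells. Such sums are led by the brightest probes of a list. The macrophage and monocyte markers seen went in the direction of most receptors. B cell markers, and most T cell and epithelial markers, went the other way, and the other lists were less uniform. The part of any of these markers in the receptor differences was not tested.

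Differences are given with each array centred at its 75th percentile, and other scalings moved small differences across 0. Scaled on 7 E1A spike-in controls, which were 3.51-fold brighter on the positive array, the median of all genes moved by -2.44, and it moved by -0.63 without scaling. The share of higher genes among all those at least 4-fold apart was 66.5% at the 75th percentile, 3.4% on the spike-in scale and 39.4% without scaling. All 19 members at least 4-fold higher stayed above 0 under every scaling tried, taken at measured differences. On the spike-in scale and without scaling this was fixed in advance, since every gene moved by -2.44 or -0.63. The smallest measured difference of the 19 was 3.30 (Clec2f). On the spike-in scale 21 of 33 members lay above 0 and 12 below. Clec2h, Clec2d and Cd209g stayed below 0 under every scaling tried, though both of those shifts could only move them further down. Clec11a, Clec2g, Clec2i, Clec18a, Clec3b and Colec12, whose differences were within about 2-fold, lay below 0 on the spike-in scale.

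**Figure D5:**
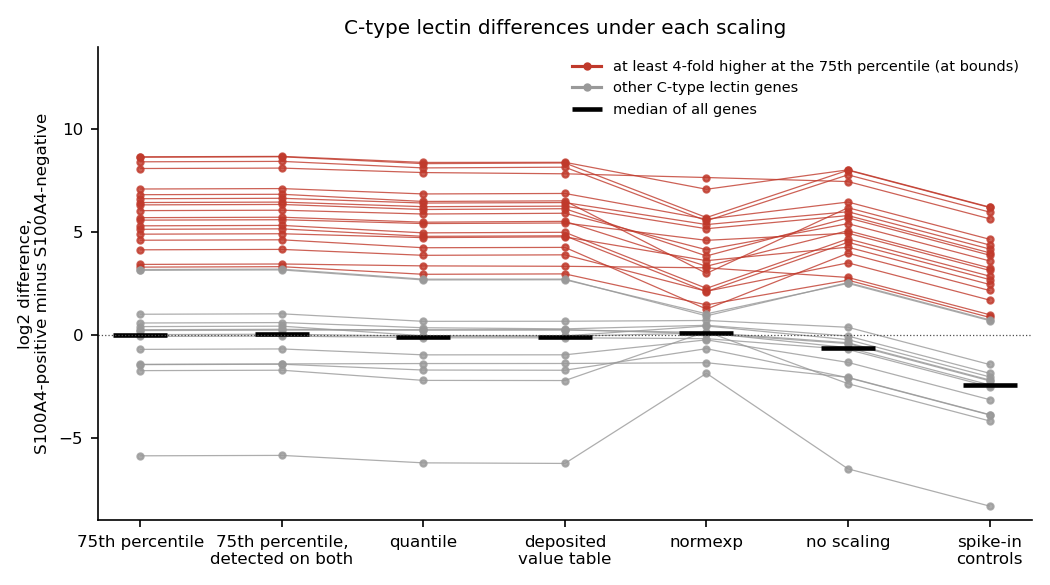
Log2 difference, S100A4-positive minus S100A4-negative, of the 33 seen C-type lectin genes (lines) under 7 scalings or corrections (horizontal axis), with members at least 4-fold higher at the 75th percentile in red, other members in grey and the median of all genes as black bars. The red lines stay above 0 throughout. On the spike-in scale, where the median of all genes lies at -2.43, this follows from a uniform shift smaller than any of their differences.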

How the data were processed

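Per the labels' protocols, total RNA was isolated with ISOGEN, and a low-input Agilent kit made the Cy3-labelled cRNA. Per the file headers, the authors obtained spot intensities in version 10.7.1.1 of Agilent's Feature Extraction software; 9.5.1.1 is the version in the submitters' processing notes. A deposited spot intensity is background-subtracted, with no normalization between arrays. The series' value table, which holds normalized intensities, served as an alternative only. Its median difference over all genes was -0.084, close to the -0.083 after quantile normalization. The value table and quantile normalization may therefore not be separate alternatives.

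Control spots and outlier spots were left out, each array was divided by its 75th percentile on the log2 scale (287.3 on the positive and 445.9 on the negative array), and replicate spots were averaged. A gene took its probe with the highest mean signal among those that were seen (well above background on 1 array or both). Probe positions are on mm9, and gene names came from the array, updated through RefSeq tables. Of the probes, 32993 were named by accession, 10224 by symbol and 520 by synonym, and 12865 had no name here. The number of arrays limits the precision: 286 probes spotted 10 times and seen on both arrays had a spread of 0.04 on the positive and 0.10 on the negative array (SD, log2).

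No p-value was computed. Counts past 4-fold and 2-fold took genes seen on 1 array at bounds, while medians used measured differences. Members and lists were chosen with earlier results of these data known, as were the cluster distance, the identity and shared-run minimums and the sequences shown. Every member is named, and of the signalling partners those with the 3 largest and 3 smallest differences, with Syk, and Card9 chosen after its values were seen. The rule also asked for single genes of each marker list, which are mostly given as counts and summed levels instead. Alternatives were quantile normalization, normexp with an offset of 50, spike-in or no scaling, the percentile over probes seen on both arrays, the deposited value table, other filters on dim probes, the median over probes, and bounds or measured differences. Steps were run in Python 3.11.15 (numpy 2.4.6, pandas 2.3.3, matplotlib 3.10.9) and R 4.3.3 with limma 3.58.1. The choice of probe per gene and the fold cut-offs were tested on simulated data, with probes seen on both arrays alone. The bounds and the detection flag were not tested there.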

Additional observations from a re-analysis of the deposited data

How the results depend on the processing

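The 19 members at least 4-fold higher numbered 13 to 22 under the alternatives that kept genes seen on 1 array. Restricting to probes seen on both arrays left 18 members, since it leaves out every gene seen on 1 array. Of the 18, 9 were at least 4-fold and 10 at least 2-fold higher, 0 were at least 4-fold lower, and the median was 2.22. Over all genes, 975 of 12964 were then at least 4-fold higher. Spike-in scaling, which shifts every gene alike, put 10 members at least 4-fold and 12 at least 2-fold lower, with a median of 1.69, counts over all genes of 345 higher and 9805 lower, and 2 partners higher and 27 lower at 2-fold. Without scaling, 3 members and 1594 of all genes were at least 4-fold lower, the median was 3.50, and 5 partners were higher and 13 lower. With normexp, 0 members were at least 4-fold lower, the median was 2.11, and 865 of all genes were higher and 393 lower; the cause was not tested. The median of the members was 3.87 after quantile normalization, 3.89 from the deposited value table, 2.79 with no filter on dim probes and 3.43 at bounds. Clec11a turned to -1.44 on the spike-in scale and Clec2e to 0.16 with normexp. Taking measured differences in place of bounds, an alternative chosen after seeing the data, gave 21 members at least 4-fold higher. No paired analysis was possible because each group is 1 array. Signal over background limits the dim members: the median ratio of signal to local background of detected spots was 5.35 on the positive and 6.8 on the negative array, and the error of members seen on 1 array reached 1.47.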
